A study of Mus musculus with 2 samples.

Results

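Zbtb genes encode transcription factors that join a BTB domain, with which they pair and recruit corepressors, to DNA-binding zinc fingers. They were chosen here by name, as the protein-coding genes of the mouse RefSeq annotation (GRCm38.p6, the assembly that mm10 denotes) whose symbol is Zbtb followed by a digit, and 41 of 21900 protein-coding genes met the rule. A gene was said to have a peak when the summit of an H3K9bhb peak lay inside it or within 5 kb of it, and each peak was placed by its highest-scoring summit. Of the 41 Zbtb genes, 16 had a peak and 25 did not. The family was chosen with earlier results of these data known, so its share is a description and not a test. Symbols take in 1 gene of another kind: Zbtb8os is named for lying opposite the Zbtb8 genes and encodes archease, a cofactor of the tRNA ligase.

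The study profiled H3K9bhb, histone H3 carrying a β-hydroxybutyryl group on lysine 9, by chromatin immunoprecipitation and sequencing (ChIP-seq) in CD8+ memory T cells from C57BL/6 mice. OT-I mice, whose T cells carry a transgenic receptor against an ovalbumin epitope, gave the splenocytes. These were stimulated with the epitope (200 ng/ml) and interleukin-2 (10 ng/ml) for 3 days, held in interleukin-15 (10 ng/ml) for 4 days, and given β-hydroxybutyrate, a ketone body written BHB, for 3 days. There was 1 ChIP library, made with 4 µg of antibody, and 1 library of input DNA from cells treated in the same way; the labels give 70 M reads of 2 × 150 bp for each. The ChIP library's list of 2204 peaks was analysed, the input's own signal was not used here, and no untreated culture was analysed here, so that a peak is a call in BHB-treated cells and not a response to BHB. There is no replicate, and intervals cover counting error only.

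The BTB domain folds into a dimer and binds complexes such as NCoR and BCL6 corepressor, so that many Zbtb proteins silence the genes to which their zinc fingers bind. Several decide lymphocyte fate: Zbtb7b (ThPOK) commits thymocytes to the CD4 helper lineage, Zbtb16 (PLZF) directs innate-like T cells, and Zbtb1 is needed for lymphoid development. Others bind methylated CpG, act at telomeres or repress genes outside the immune system. Histone β-hydroxybutyrylation is formed when BHB levels rise and has been described at promoters of active genes.

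The places of the summits are easiest to follow on the promoter sequences. RefSeq promoter windows (GRCm38.p6), 250 bases before and 50 bases from a listed transcription start on, were given for 36 of the 41 Zbtb genes and for 13 of the 16 with a peak. The 5 members whose summits lay closest to a start are shown first, together with Zbtb44, whose summit also fell inside its window. Each is written 5′ to 3′ along the gene's strand with every CpG in capitals. The windows are chr5:38220405-38220704 (minus strand) for Zbtb49, chr9:96719801-96720100 (minus) for Zbtb38, chr2:33468483-33468782 (minus) for Zbtb43, chr10:81136021-81136320 (plus) for Zbtb7a, chr17:34894309-34894608 (plus) for Zbtb12 and chr9:31030394-31030693 (plus) for Zbtb44.
Zbtb49: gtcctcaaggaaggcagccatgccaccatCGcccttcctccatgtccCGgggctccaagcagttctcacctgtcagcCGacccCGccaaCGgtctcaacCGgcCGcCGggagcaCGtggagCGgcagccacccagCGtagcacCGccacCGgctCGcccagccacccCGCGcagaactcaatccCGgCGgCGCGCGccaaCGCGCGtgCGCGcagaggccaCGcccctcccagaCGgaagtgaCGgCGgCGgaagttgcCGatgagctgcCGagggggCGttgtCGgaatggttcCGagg
Zbtb38: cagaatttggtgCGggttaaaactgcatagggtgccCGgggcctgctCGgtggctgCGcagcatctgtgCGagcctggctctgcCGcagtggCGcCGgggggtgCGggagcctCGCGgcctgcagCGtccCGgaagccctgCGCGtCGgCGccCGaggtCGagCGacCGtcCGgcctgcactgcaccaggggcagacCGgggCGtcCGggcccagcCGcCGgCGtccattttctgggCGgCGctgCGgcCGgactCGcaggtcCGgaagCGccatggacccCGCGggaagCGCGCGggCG
Zbtb43: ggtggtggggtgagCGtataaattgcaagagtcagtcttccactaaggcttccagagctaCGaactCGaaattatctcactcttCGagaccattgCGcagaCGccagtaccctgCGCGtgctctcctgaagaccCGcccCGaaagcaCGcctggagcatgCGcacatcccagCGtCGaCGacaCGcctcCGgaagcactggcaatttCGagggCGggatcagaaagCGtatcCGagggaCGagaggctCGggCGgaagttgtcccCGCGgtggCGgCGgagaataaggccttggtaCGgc
Zbtb7a: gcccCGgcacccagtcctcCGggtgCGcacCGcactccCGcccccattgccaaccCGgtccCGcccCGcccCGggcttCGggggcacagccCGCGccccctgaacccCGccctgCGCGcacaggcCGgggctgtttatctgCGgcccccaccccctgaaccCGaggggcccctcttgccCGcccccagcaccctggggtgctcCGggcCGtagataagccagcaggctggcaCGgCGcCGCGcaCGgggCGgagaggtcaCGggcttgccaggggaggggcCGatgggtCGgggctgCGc
Zbtb12: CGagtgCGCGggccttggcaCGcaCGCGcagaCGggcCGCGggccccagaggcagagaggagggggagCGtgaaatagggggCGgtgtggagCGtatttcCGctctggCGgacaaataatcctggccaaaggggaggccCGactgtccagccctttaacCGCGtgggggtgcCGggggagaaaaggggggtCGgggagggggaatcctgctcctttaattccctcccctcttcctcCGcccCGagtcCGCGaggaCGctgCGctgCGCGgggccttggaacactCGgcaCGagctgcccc
Zbtb44: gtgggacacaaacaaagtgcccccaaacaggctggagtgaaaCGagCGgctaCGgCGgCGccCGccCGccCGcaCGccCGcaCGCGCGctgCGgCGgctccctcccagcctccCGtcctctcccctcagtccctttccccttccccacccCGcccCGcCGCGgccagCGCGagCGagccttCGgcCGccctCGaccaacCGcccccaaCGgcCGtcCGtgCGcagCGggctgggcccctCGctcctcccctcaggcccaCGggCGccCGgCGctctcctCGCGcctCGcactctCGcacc
In these 6 windows the number of CpG was 36 in Zbtb49, 41 in Zbtb38, 29 in Zbtb43, 31 in Zbtb7a, 29 in Zbtb12 and 41 in Zbtb44. The summit of Zbtb49 was base 192 of its window and that of Zbtb44 base 76. The other 4 summits lay just past the window's last base, farther into the gene.

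For contrast, 3 members of the T cell and lymphocyte list that had no peak are shown in the same way, chosen after their values were seen. The windows of Zbtb7b at chr3:89393329-89393628 (minus strand) and Zbtb32 at chr7:30598860-30599159 (minus) held few CpG, and that of Zbtb1 at chr12:76370270-76370569 (plus) held many.
Zbtb7b: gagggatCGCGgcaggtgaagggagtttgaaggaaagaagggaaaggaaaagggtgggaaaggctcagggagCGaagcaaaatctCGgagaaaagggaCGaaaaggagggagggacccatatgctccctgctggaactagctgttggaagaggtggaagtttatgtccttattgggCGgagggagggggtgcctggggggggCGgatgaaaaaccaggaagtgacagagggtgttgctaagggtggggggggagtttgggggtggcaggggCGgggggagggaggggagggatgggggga
Zbtb32: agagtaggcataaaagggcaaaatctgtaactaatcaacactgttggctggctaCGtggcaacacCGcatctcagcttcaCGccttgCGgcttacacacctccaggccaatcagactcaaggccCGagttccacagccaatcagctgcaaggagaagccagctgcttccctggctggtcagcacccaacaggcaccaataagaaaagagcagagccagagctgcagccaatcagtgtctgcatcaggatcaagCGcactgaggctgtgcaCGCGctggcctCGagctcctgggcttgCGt
Zbtb1: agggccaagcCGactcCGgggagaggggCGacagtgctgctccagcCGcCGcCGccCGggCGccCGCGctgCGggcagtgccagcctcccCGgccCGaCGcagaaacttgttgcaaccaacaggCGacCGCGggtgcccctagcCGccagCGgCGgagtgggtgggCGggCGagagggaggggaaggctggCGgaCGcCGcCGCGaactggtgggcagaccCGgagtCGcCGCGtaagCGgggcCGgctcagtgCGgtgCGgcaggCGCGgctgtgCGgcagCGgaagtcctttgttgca
Zbtb7b had 8 CpG, Zbtb32 had 10 and Zbtb1 had 39. A window rich in CpG was therefore found on both sides of the peak rule, and the composition of all 36 windows is given after the members. The listed start of Zbtb32 lies well inside the annotated gene, and the gene's outer end was not examined.

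Of the Zbtb genes, 39.0% had a peak (16 of 41, exact Clopper-Pearson 95% interval 24.2 to 55.5), beside 11.4% of all protein-coding genes (2489 of 21900, 10.9 to 11.8). The interval covers counting error only and does not allow for the choice of the family with earlier results known. Each of the 16 had a single peak. The peaks lay on 12 chromosomes and did not come from 1 cluster of genes. Their scores (the peak caller's −log10 p or q, as the authors gave it, used here only to rank peaks within the list) ran from 2.62 to 7.70 with a median of 5.08, beside a median of 5.04 over all 2204 peaks. Zbtb peaks were thus of middling rank, and 9 of the 16 scored at or above the median of all peaks. In the top 10% of peaks, 0 of the 41 Zbtb genes had one, beside 1.27% of all protein-coding genes (278 of 21900).

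**Figure D1:**
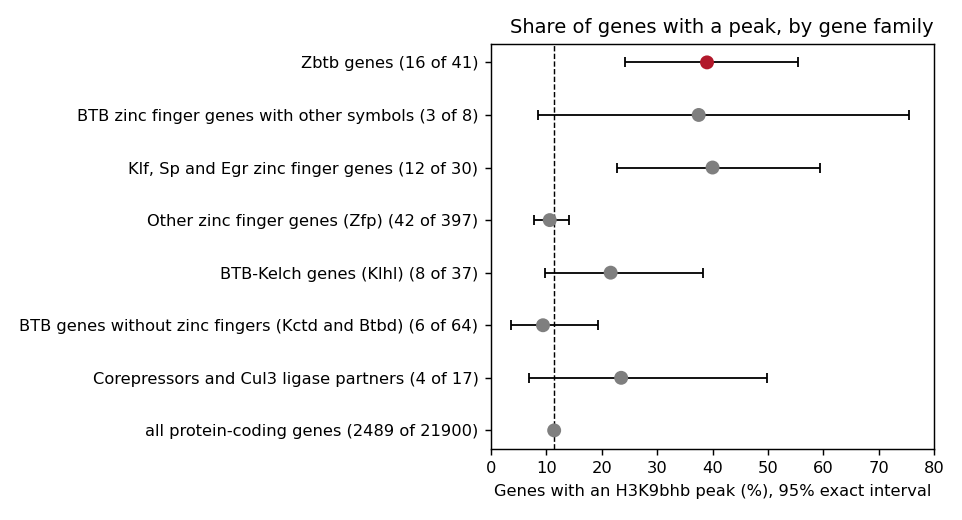
Share of genes with an H3K9bhb peak in each gene family (x axis, %), with exact 95% intervals as bars, counts in parentheses and the share of all protein-coding genes as a dashed line. The Zbtb genes (39.0%) and the Klf, Sp and Egr genes (40.0%) lie to the right of the line at 11.4%, and the Zfp genes (10.6%) lie on it.

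Where a start was listed, the summits lay near it. In all 13 members with a peak and a listed start, the summit was within 2 kb of a start, beside 1676 of 2032 (82.5%) for all protein-coding genes with both. The distances ran from 586 bp before the start to 415 bp after it, with a median of 103 bp after it, beside a median of 108 bp after it for all protein-coding genes within 2 kb. On the transcribed side were 9 of the 13 (69.2%), beside 69.0% for all genes. In placement relative to the start, the medians of Zbtb genes and of all genes were thus close. The summits of Zbtb8os and Zbtb49 were closer to the listed start of a neighbouring gene than to their own. When a peak was counted only for the gene with the nearest end, 12 members had a summit within 2 kb of a listed start. For Zbtb10, Zbtb48 and Zbtb7c no start was listed, and the summit was 283, 183 and 319 bp from the nearest end of the gene.

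**Figure D2:**
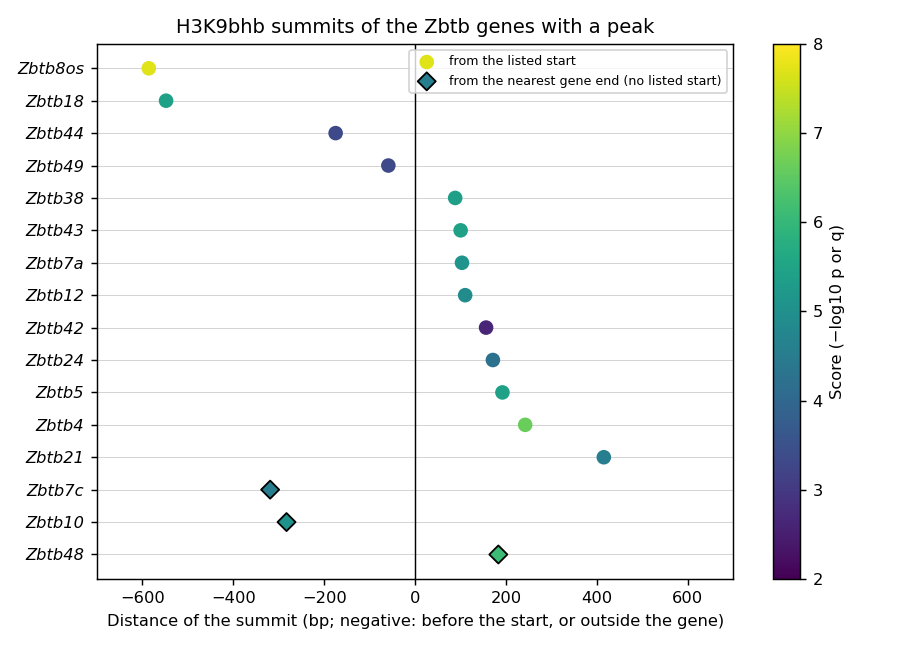
Distance of the summit from the closest listed transcription start (circles) or, for Zbtb7c, Zbtb10 and Zbtb48, from the nearest gene end (diamonds), in bp; circles run along the gene's direction, diamonds are positive inside the gene and negative outside it, and colour gives the score. The summits of 9 genes lie between 88 and 415 bp after the start, and those of Zbtb8os, Zbtb18, Zbtb44 and Zbtb49 lie before it.

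In the T cell and lymphocyte list, 2 of 10 members had a peak (95% interval 2.52 to 55.6%). This interval takes in the 11.4% of all protein-coding genes. The list also holds Zbtb46, which is known from dendritic cells. Zbtb7a (chromosome 10, 81135225 to 81152222), which encodes LRF, a repressor of fetal globin genes that also acts in T and B cell fate, had a summit at 81136374 with a score of 5.12. It was 1149 bp inside the annotated gene but 103 bp after the listed start, which begins farther in. Zbtb24 (chromosome 10, 41450358 to 41465582), which is mutated in a human immunodeficiency with centromeric instability, had a summit at 41450529, 171 bp after the start, with a score of 4.26.

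The other 8 genes of that list had no peak, and they include regulators of T cell lineage. Zbtb7b (chromosome 3, 89377644 to 89393673) was 36.9 kb from the closest summit, which lay at an end of Pygo2. Zbtb32 (chromosome 7), a repressor induced in activated lymphocytes, was 54.9 kb from the closest summit, and Zbtb46 (chromosome 2), a marker of conventional dendritic cells, was 27.4 kb away. The distances were 149 kb for Zbtb16, 323 kb for Zbtb17, which encodes the Myc partner Miz-1, and 345 kb for Zbtb20, a factor needed by long-lived plasma cells. Zbtb25 and Zbtb1 were 531 and 552 kb from a summit that lay nearest to an end of Syne2. Zbtb20 is at 759 kb the longest member, and Zbtb16 spans 184 kb, so both left much room for a summit and held none. Genes that define the labelled cells were also without a peak (0 of Cd8a, Cd8b1, Cd3d, Cd3e and Cd3g), as were 9 markers of other blood cells. The exact intervals were 0 to 52.2% and 0 to 33.6%, and both take in the 11.4% of all protein-coding genes. With so few genes, the counts do not show that these markers lack peaks more often than other genes. The peak list therefore does not check the cell type.

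Of the members that bind methylated CpG, Zbtb4 and Zbtb38 had a peak and Zbtb33 did not (2 of 3, exact interval 9.43 to 99.2%). That interval takes in the 11.4% of all protein-coding genes. Zbtb4 (chromosome 11, 69765912 to 69784026) had its summit at 69766154, 242 bp after the start, and at 6.63 the second-ranking score of the family, with 28.8% of all peaks scoring as high or higher. Slc35g3 was counted for the same peak, with an end 4310 bp from the summit. Zbtb38 (chromosome 9, 96682767 to 96731675) had a summit at 96719762 with a score of 5.35, which was 11913 bp inside the gene. That place is not the outer end of Zbtb38 but 88 bp after the second of its 3 listed starts. The window of the outermost start had a GC content of 41.0% and 8 CpG, while that of the start with the peak had 74.7% and 41 CpG. Zbtb33, which encodes Kaiso and is the only member on the X chromosome, was 1141 kb from the closest summit, although its window held 34 CpG.

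Both members known to bind telomeric repeats in human cells had a peak (exact interval 15.8 to 100%), beside 11.4% of all protein-coding genes. That interval takes in the 39.0% of all Zbtb genes. Neither member had a listed promoter window, and a link between telomere binding and peaks was not tested. Zbtb48, whose human protein (TZAP) trims long telomeres, lies on chromosome 4 (152019773 to 152027675), and its summit at 152027492 was 183 bp inside its higher-coordinate end and scored 6.08. Tas1r1, a taste receptor gene, was counted for the same peak, with an end 422 bp from the summit, but its listed start was 10998 bp away. Zbtb10 (chromosome 3, 9250567 to 9285333) had a summit at 9250284, which was 283 bp outside its lower-coordinate end and scored 5.04.

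Among the other members with a peak are repressors known from neurons, muscle and cell cycle control. Zbtb18 (chromosome 1, 177442351 to 177450764), which encodes RP58, a repressor of cortical neuron development, had a summit at 177441803, 548 bp before the first of its 5 listed starts, with a score of 5.41. That first window held 51 CpG, while the windows of the 4 inner starts held 1 to 3. Zbtb42 (chromosome 12, 112678648 to 112682747), a relative of Zbtb18 linked to muscle disease in humans, had a summit at 112678996, 156 bp after its start, and the lowest score of the family at 2.62. This summit was also within 5 kb of Akt1, whose end was 4112 bp away.

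Zbtb5 (chromosome 4, 44991242 to 45012412), whose human protein represses the cell cycle inhibitor p21, had a summit at 45012220, 192 bp after the start, and scored 5.41. Zbtb49 (chromosome 5, 38189732 to 38220499), whose human protein activates p21, had a summit at 38220513, 59 bp before the start, and scored 3.33. Zbtb49 shares this peak with Lyar, a nucleolar protein gene, whose own listed start was 31 bp from the summit, so that the peak cannot be assigned to either one alone. Zbtb7c (chromosome 18, 75820178 to 76148564), a relative of Zbtb7a and at 328 kb the longest member with a peak, had a summit at 75819859, 319 bp outside the gene, and scored 4.54. Of the 3 Zbtb7 genes, Zbtb7a and Zbtb7c thus had a peak and Zbtb7b had none.

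The remaining members with a peak were Zbtb43, Zbtb12, Zbtb21, Zbtb44 and Zbtb8os. Zbtb43 (chromosome 2, 33450287 to 33468581) had a summit at 33468432, 100 bp after the start, and scored 5.41. Zbtb12 (chromosome 17, 34894559 to 34896867), the shortest member at 2.31 kb, had a summit at 34894669, 110 bp after the start, and scored 4.89. Its neighbour Ehmt2, which encodes the H3K9 methyltransferase G9a, was counted for the same peak, but with an end 3794 bp from the summit.

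Zbtb21 (chromosome 16, 97945795 to 97962627) had a summit at 97962207, 415 bp after the start, and scored 4.54. Zbtb44 (chromosome 9, 31029720 to 31075885) had a summit at 31030469, 175 bp before the start, and scored 3.33. For Zbtb8os (chromosome 4, 129335532 to 129349871) the summit at 129335382 had the highest score among these peaks, 7.70. It lay 586 bp before the listed start of Zbtb8os but 12 bp from that of Rbbp4, a histone-binding subunit of chromatin complexes, and was the 1 peak of the 16 whose nearest gene end belonged to another gene. Without Zbtb8os, 15 of 40 members (37.5%) had a peak.

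The members with and without a peak were widely separated. No member with a peak had its summit more than 548 bp outside the gene (Zbtb18), and the member without a peak that came closest, Zbtb8a, was 18250 bp from a summit, the one beside Rbbp4 and Zbtb8os. Changing the flank to 2 kb or to 10 kb therefore left the same 16 genes, while the share of all protein-coding genes with a peak was 10.7% and 13.0%. Besides Zbtb8a, Zbtb46 and Zbtb7b, 4 members without a peak had a summit within 50 kb. Zbtb22 was 25.5 kb from a summit nearest to Kifc1, Zbtb3 was 27.8 kb from one nearest to Tmem179b, Zbtb45 was 33.4 kb from one nearest to Mzf1, and Zbtb34 was 34.7 kb from one nearest to Ralgps1.

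The other members without a peak were farther away. Zbtb39 was 62.5 kb from a summit, Zbtb9 81.3 kb, Zbtb8b 90.4 kb, Zbtb37 96.6 kb and Zbtb40 144 kb. Zbtb26, Zbtb6, Zbtb2, Zbtb11, Zbtb14 and Zbtb41 lay from 909 to 2955 kb from any summit. Over all 25 the median distance was 144 kb, and 9 members were over 500 kb from a summit.

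Stricter rules kept fewer members. With no flank, 11 members had a peak, beside 8.64% of all protein-coding genes, since 5 summits lay just outside the gene. With windows of 2 kb at gene ends alone 15 had one (all but Zbtb38), beside 9.40%, and when a peak was counted only for the gene with the nearest end 15 had one (all but Zbtb8os), beside 9.23%. In the top 50% of peaks by score, 9 members had a peak, beside 5.77%.

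**Figure D3:**
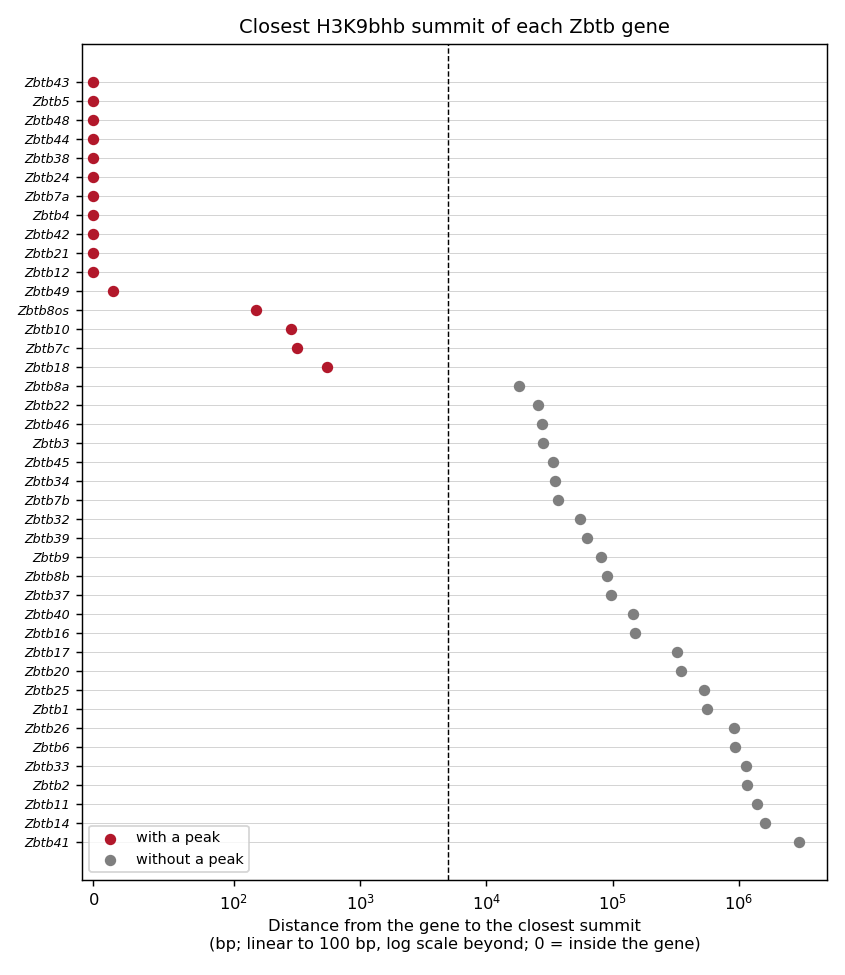
Distance from each of the 41 Zbtb genes to the closest H3K9bhb summit (x axis in bp, linear to 100 bp and logarithmic beyond, with 0 for a summit inside the gene); the dashed line marks 5 kb. The 16 genes with a peak lie at 0 to 548 bp, and the 25 without one lie at 18250 bp or more.

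Zbtb genes that lie next to each other did not always share their state. Zbtb25 and Zbtb1 overlap by 164 bp at their starts on chromosome 12, and neither had a peak. The same held for Zbtb6 and Zbtb26, which are 1248 bp apart on chromosome 2. Zbtb43 had a peak while Zbtb34, 19.0 kb from it, had none, and Zbtb8os had a peak while Zbtb8a, 3760 bp from it, and Zbtb8b had none.

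Gene length and promoter composition were not used by the rule and are given as descriptions. Members with a peak had a median length of 17.6 kb (2.31 to 328 kb) and those without one 21.2 kb (2.37 to 759 kb). Among all protein-coding genes the medians were 31.3 kb with a peak and 15.8 kb without. The longer genes were thus those with a peak in the whole annotation, and not among the Zbtb genes.

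Zbtb promoters were rich in CpG as a family. In the window of the outermost listed start, the observed over expected CpG ratio (the CpG count set against that given by the window's C and G content) had a median of 0.840 over 36 Zbtb genes, beside 0.577 over 17492 protein-coding genes. Within the family it was 0.852 (0.642 to 1.076) for 13 members with a peak and 0.833 (0.052 to 1.154) for 23 without. The GC content had a median of 68.7% with a peak and 62.7% without. It ran from 41.0 to 81.7% with a peak and from 43.3 to 79.0% without. The ranges of both measures overlap over most of their length, and the ratio differs mainly at the low end. The 6 members with a ratio under 0.6, which are Zbtb46, Zbtb20, Zbtb32, Zbtb3, Zbtb8b and Zbtb7b, had no peak. For Zbtb20, Zbtb46, Zbtb8b and Zbtb32 the outermost listed start lay well inside the annotated gene. In Zbtb20 it is at 43247284 and the gene begins at 42875689. In Zbtb46, on the minus strand, it is at 181424388 and the gene begins at 181493262. The composition at the outer ends of these genes was not measured.

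In the whole annotation, genes with more CpG at the start more often had a peak: 4.00% did with a ratio under 0.6, 16.7% with 0.6 to 0.8 and 21.9% with 0.8 and over. Among the Zbtb genes it was 0 of 6, 5 of 10 and 8 of 20 in the same classes, so that the share was no higher in the top class than in the middle one. A window was called CpG-rich when its GC content was at least 55% and its ratio at least 0.65, limits chosen after the values were seen. CpG-rich windows were found in 26 of 36 Zbtb genes (72.2%) and in 38.3% of all protein-coding genes with a window. Of these Zbtb genes 11 of 26 (42.3%) had a peak, beside 21.7% of all protein-coding genes with a CpG-rich window. Of the Zbtb genes with another window 2 of 10 had a peak, beside 5.38% of all such genes; the 2 were Zbtb4, with a ratio of 0.647, and Zbtb38, whose peak lay at a CpG-rich inner start. When any listed start could make a gene CpG-rich, 12 of 27 such Zbtb genes had a peak, beside 21.5% of all such protein-coding genes (1547 of 7183). The part of CpG content in the family's share was not tested.

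**Figure D4:**
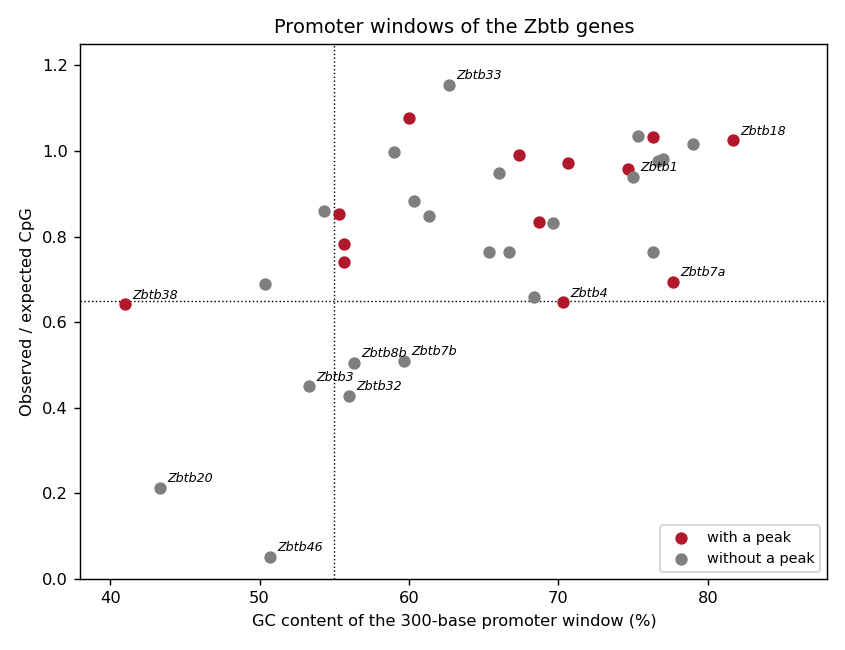
GC content (x axis, %) and observed over expected CpG ratio (y axis) of the 300-base window at the outermost listed start of 36 Zbtb genes, coloured by whether the gene had a peak; dotted lines mark 55% and 0.65. Most genes of both kinds lie in the upper right, and the 6 genes under a ratio of 0.6 have no peak. Among these, the listed start of Zbtb20, Zbtb46, Zbtb8b and Zbtb32 lies well inside the annotated gene.

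Short motifs were counted on both strands of the windows at the outermost starts, as letters and not as bound sites. The GC box GGGCGG was in 11 of 13 windows of members with a peak and in 14 of 23 of members without, beside 46.3% of all 17492 windows, 73.2% of those of genes with a peak and 80.1% of the CpG-rich ones. The ETS motif CCGGAAG was in 2 of 13 and in 9 of 23, beside 11.9% of all windows, 15.6% with a peak and 20.3% of the CpG-rich ones. GC boxes were thus common in windows of both kinds.

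The CCAAT box CCAAT was in 3 of 13 windows of members with a peak and in 10 of 23 of members without, beside 39.2% of all windows, 35.2% with a peak and 36.2% of the CpG-rich ones. The TATA box TATAAA was in 2 of 13, those of Zbtb43 and Zbtb8os, and in 0 of 23, beside 13.3%, 5.71% and 4.12%. In the window of the start closest to the summit, which differs from the outermost one for Zbtb38, the GC box was in 12 of 13 and the ETS motif in 3 of 13 (Zbtb24, Zbtb38 and Zbtb43). The difference between members with and without a peak was not tested for any motif. The motifs listed do not contain one another.

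Related families are given for comparison, as counts without a test. BTB zinc finger genes that carry other symbols had a peak at 3 of 8 (37.5%, 95% interval 8.52 to 75.5), beside 11.4% of all protein-coding genes: Zfp131 (score 5.61), Hic2 (5.52) and Hic1 (3.54), a repressor silenced in many tumours. Bcl6, the repressor of follicular helper T cells, had none, nor had Bcl6b, Patz1, Mynn or Gzf1. With these genes added, 19 of 49 BTB zinc finger genes (38.8%) had a peak.

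Families that share only 1 of the protein domains are set beside the same 11.4% of all protein-coding genes. BTB-Kelch genes (Klhl), adaptors of Cul3 ubiquitin ligases, had a peak at 8 of 37 (21.6%), among them Klhl31 (11.7) and Klhl17 (10.5), which scored above every Zbtb peak. Kctd and Btbd genes, with a BTB domain and no zinc fingers, had a peak at 6 of 64 (9.38%). Of the Zfp genes, zinc finger factors mostly without a BTB domain, 42 of 397 (10.6%) had a peak. The Klf, Sp and Egr zinc finger genes had 12 of 30 (40.0%), among them Sp4 (10.5) and Klf11 (9.54).

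In CpG-rich windows alone the shares were 42.3% for Zbtb (11 of 26), 46.7% for Klf, Sp and Egr (7 of 15), 30.8% for Klhl (4 of 13), 21.1% for Kctd and Btbd (4 of 19) and 19.4% for Zfp (21 of 108), beside 21.7% of all protein-coding genes with a CpG-rich window. The Kctd and Btbd genes and the Zfp genes were thus close to that share. Of 17 corepressors and Cul3 ligase components that BTB domains recruit, 4 (23.5%, 95% interval 6.81 to 49.9) had a peak, beside 11.4% of all protein-coding genes. With a CpG-rich window it was 2 of 10, near the share of all such genes. The 4 were Tbl1xr1 (7.05), a subunit of the NCoR complex, the scaffolds Sin3b (5.26) and Sin3a (3.17), and the deacetylase Hdac2 (4.09). Ncor1, Bcor, Hdac3 and Cul3 were among the 13 without one.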

How the data were processed

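H3K9bhb ChIP and input DNA from BHB-treated CD8+ memory T cells gave 1 library each, and only the ChIP peaks were used. The tools named in the submitters' processing notes are MACS2 (version 2.1.2), Bowtie2 (2.3.5), Trimmomatic (0.39) and FastQC (0.11.8), and the build is mm10. Peak calling settings and the control used were not given in the sources used here. Each row of the deposited table is 1 of 2315 summits, of 2204 peaks, with the authors' −log10 value, a p or a q (not stated which). Reads per peak were not used here, and the depth behind each is unknown. Mitochondrial DNA, free of histones, holds 9 peaks, so a call alone is no proof of the mark.

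Summits were set against 21900 protein-coding genes and RefSeq promoter windows (GRCm38.p6), listed for 17492 of them (79.9%). Among Zbtb loci, 1 non-coding RNA was left out. The start closest to the summit was used for distances and the outermost one for composition. Counting was tested on simulated summits. Intervals are exact (Clopper-Pearson, 95%). Members and lists were chosen with earlier results of these data known; all members are named, and of other lists up to 8 genes with a peak by score. The planned protein features were not computed. Calculations used scipy 1.17.1, pandas 2.3.3, numpy 2.4.6 and matplotlib 3.10.9 under Python 3.11.15.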

Additional observations from a re-analysis of the deposited data

How the results depend on the processing

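The count of Zbtb genes with a peak changed most with the score threshold. In the top 50% of peaks by score it was 9 (22.0%), beside 5.77% of all protein-coding genes, with 7 members within 2 kb of a listed start, and in the top 10% it was 0 (0%), beside 1.27%; fewer peaks were used in both. Counting only summits inside the gene gave 11 (26.8%, beside 8.64% of all genes), without Zbtb10, Zbtb18, Zbtb49, Zbtb7c and Zbtb8os. Windows of 2 kb at gene ends gave 15, without Zbtb38, and counting only the gene with the nearest end gave 15, without Zbtb8os, beside 9.40% and 9.23% of all genes. Leaving out peaks scoring over 20 or using every summit gave 16. The median score ran from 5.04 to 5.12 over its alternatives. The score rests on local read depth, and the depth behind single peaks is unknown, so a gene without a call may still carry the mark below what this library could show. No paired analysis was possible because there is 1 ChIP library and no test.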
